A study of Bos taurus with 12 samples.

Results

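Interleukins and their receptors were examined in the endometrium, the lining of the uterus, of old and young cows. Every non-control probe whose gene symbol on the array starts with IL followed directly by a digit was taken, which gave 93 transcripts of 81 genes, measured by 202 probes with 173 different sequences, out of 26323 transcripts and 61333 probes in all. A probe entered by its symbol and not by its level, but probes with an outlier flag were left out. The members were chosen with earlier results of these data known. They comprised 38 ligand genes, 36 receptor genes, 6 genes of antagonists, decoy receptors or binding proteins, and IL4I1, an enzyme that oxidises amino acids and is no interleukin. The arrays held 4 old females (OF, aged 13 to 14 years, nulliparous), 4 young females (YF, aged 4 to 5 years, primiparous) and 4 contemporary cows (CC). OF and YF were Holstein clones made by somatic nuclear transfer from a single donor cow, so that they share 1 genotype. The age, parity and origin of the CC are not given in the sources used here, and the labels say that the authors left out animal 1111 for a divergent phenotype, so 3 CC were used. OF and YF were synchronised and biopsied on Day 15 of the cycle, in intercaruncular tissue of the horn on the side of the corpus luteum. The samples of the CC are also given as Day 15. The YF had calved more than a year before, and every OF differed from every YF in both age and parity, so that these cannot be told apart. The replicate is the animal.

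Interleukins are secreted proteins through which leukocytes, epithelium and stroma signal to each other. Many bind a receptor of a ligand-specific chain and a chain shared with other members of its family, others such as IL8 bind a receptor of a single chain, and antagonists or decoy receptors compete for some ligands. In the cycling uterus they are known for recruiting leukocytes, for the clearance of infection and for the tolerance of an embryo, and Day 15 falls near the time at which a cow's endometrium would meet the signals of a conceptus.

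The probes for the transcripts on which the comparison of OF with YF turns are shown here, as the array files give them, 5′ to 3′, each of 60 bases. In the IL12A probe the capitals mark the 38 bases that also open the second IL12A probe, which runs 22 bases further, so that both probes read nearly the same stretch of the transcript. For IL4R and IL17B 1 of the 2 different probes is shown, with no capitals since no long stretch is shared with the other. The transcripts lie, by the array annotation on UMD3.1, at chr1:108285283-108291983 for IL12A, chr25:25139417-25189373 for IL4R and chr7:62769961-62773956 for IL17B.
IL12A: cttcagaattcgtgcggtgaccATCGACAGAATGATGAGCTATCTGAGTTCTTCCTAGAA
IL4R: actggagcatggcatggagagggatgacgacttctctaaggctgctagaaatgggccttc
IL17B: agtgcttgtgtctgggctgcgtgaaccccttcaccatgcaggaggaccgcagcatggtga

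A level below is the log2 of the processed intensity minus the log2 of the array's 75th percentile, so that 0 is the brightness of that percentile, and a difference of 1 is a factor of 2. Levels of different genes come from different probes and are not compared. The 75th percentile ranged from 968 to 1597 over the 11 arrays used, with the lowest in OF 2258, and 71.5% to 74.9% of the probes were well above background. Among the cell type markers, the summed linear level of 9 smooth muscle genes lay between 24.3 and 66.8 in YF and between 29.3 and 49.2 in CC, but was 371 in OF 0234 and 1054 in OF 2258. The sum of 8 epithelial genes was 10.3 in OF 2258 and at least 18.3 in every other animal. In each of the lists of T and NK cell, mast cell and uterine genes, 1 gene was not well above background on any array: CD4, MS4A2 and PAEP. Other genes of these lists were so on all 11 arrays, among them CD3E, CD2 and CD8A of T cells, CPA3, KIT and TPSB1 of mast cells, and PGR. The 3 genes thus do not show that a cell type was missing. In bulk tissue, fewer cells of a type and less RNA per cell cannot be told apart.

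Receptors were measured more often than ligands. Of the 81 genes, 38 (46.9%) were well above background on all 11 arrays, 23 on some and 20 (24.7%) on none. Of 36 receptor genes, 22 were above background on all arrays (61.1%), 9 on some and 5 on none. Of 38 ligand genes the counts were 13 (34.2%), 12 and 13. Counted as transcripts, 45 of the 93 (48.4%) were above background on all arrays, against 18767 of all 26323 (71.3%). Whether ligands and receptors differ in probe quality was not tested.

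In the family of the common gamma chain and of type 2 immunity the split was wide. None of its 9 ligands, which include the T cell growth factors IL2 and IL15 and the type 2 cytokines IL4, IL5 and IL13, was above background on all arrays, and 5 were so on none, whereas 7 of its 10 receptor genes were above background on all arrays. IL2, the growth factor of T cells, ranged from -8.78 to -8.25 over the 11 females and was not well above background in any of them. IL17A, which recruits neutrophils through epithelium, ranged from -9.02 to -8.33 and was not above background in any of them either. IL4, which drives type 2 responses, was above background in 2 YF only, with levels from -8.51 to -7.76 over all 11. Such values are bounds set by the background and carry no order between animals. In the IL17 family 5 of 6 receptors were above background on all arrays but 2 of 6 ligands. The IL1 family went the other way, with 6 of 9 ligands and 2 of 7 receptors above background on all arrays. In the IL10 family, 1 of 5 ligands and 3 of 5 receptors reached this, in the IL12 family 2 of 4 and 2 of 4, and in the IL6 family 0 of 2 and 3 of 4.

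**Figure D1:**
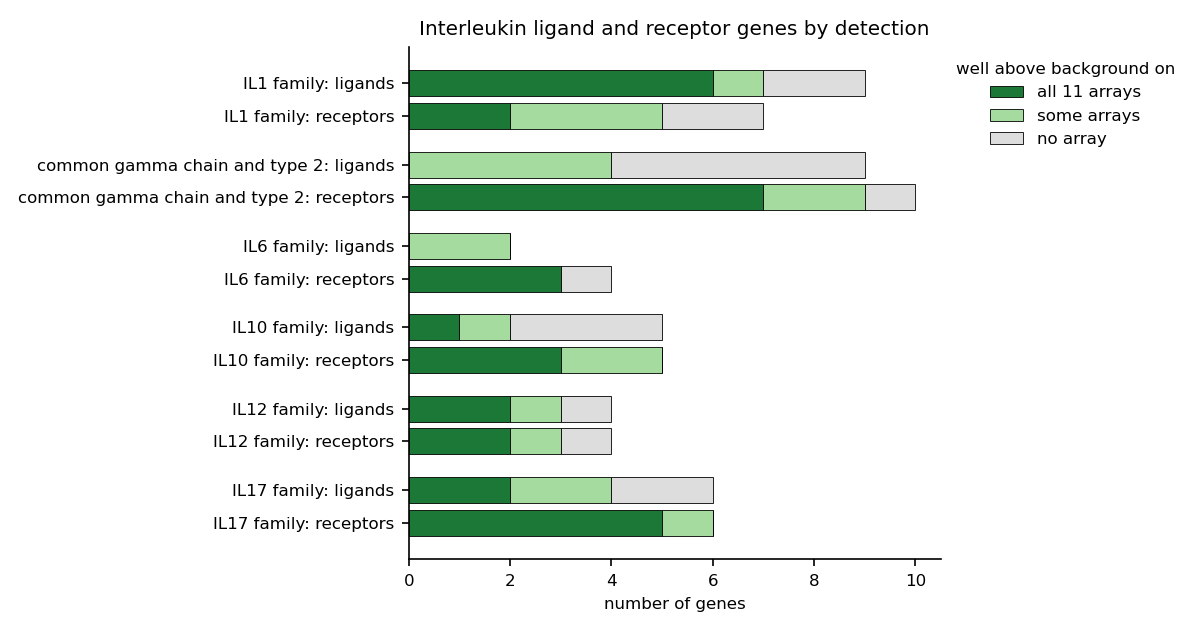
Number of ligand and receptor genes of each interleukin family (horizontal axis) that were well above background on all 11 arrays, on some or on none. In the common gamma chain and type 2 family 0 of 9 ligands but 7 of 10 receptors were above background on all arrays, and in the IL1 family 6 of 9 ligands and 2 of 7 receptors.

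The first comparison asked which interleukin genes differ between the endometrium of OF and YF. No gene passed an adjusted p of 0.05 in limma, either among the 50 member transcripts tested or among all 19755 transcripts (0.0% called). The smallest adjusted p of a member was 0.999. At an unadjusted p of 0.05, 2 of the 50 transcripts (4%) differed, against 2.42% of all transcripts: IL4R was higher and IL12A lower in OF. The levels of 0 of the 50 kept OF and YF apart, against 1.53% of all transcripts, 0.931% with all OF above all YF and 0.597% with all OF below. In mean, 23 transcripts were higher and 27 lower in OF, whereas 51.7% of all transcripts were higher, and the median difference was -0.06 among members and 0.01 among all. The members varied more between animals than transcripts in general: the median absolute difference was 0.24 against 0.15, and the median SD within groups was 0.52 against 0.33. The median SE of a difference was 0.34 against 0.22.

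**Figure D2:**
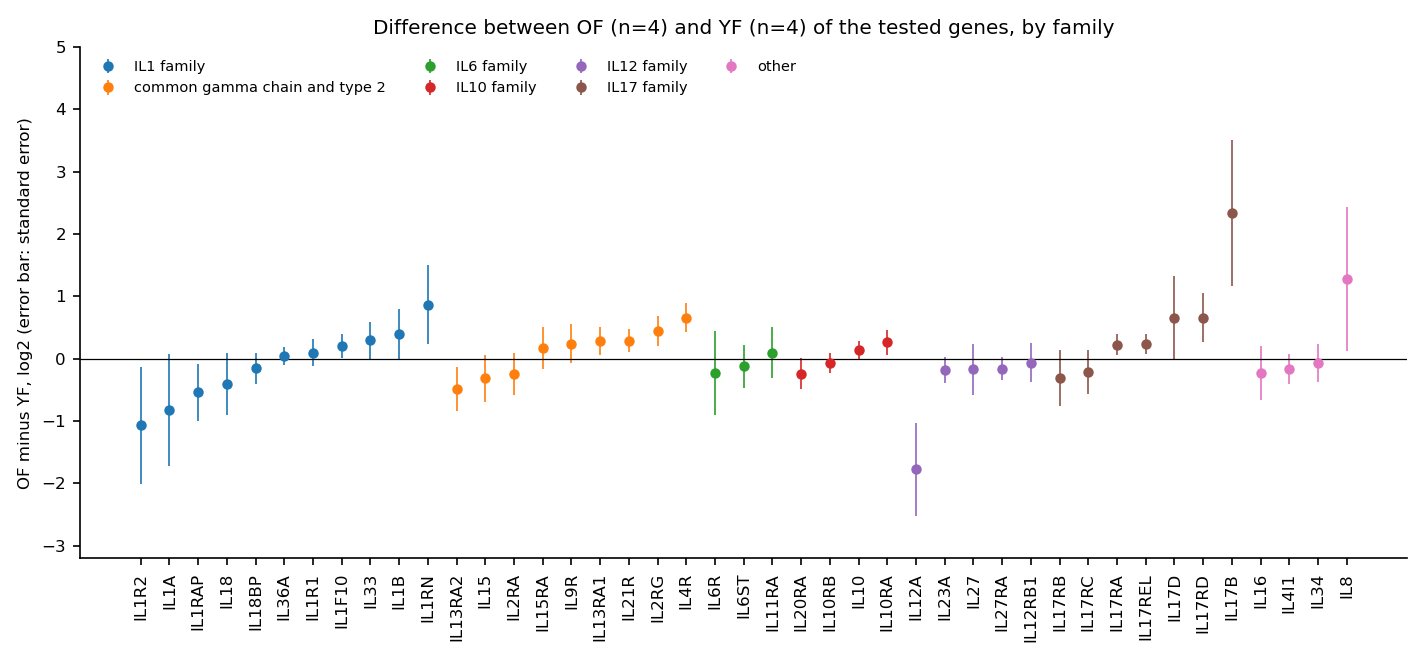
Difference in mean level between OF (n = 4) and YF (n = 4) on the log2 scale (vertical axis) for each interleukin gene tested, grouped by family, with the standard error of limma as the error bar. IL17B (2.34) and IL8 (1.28) had the highest differences and IL12A (-1.77) and IL1R2 (-1.06) the lowest, and 0 genes passed an adjusted p of 0.05. IL8 passed the filter on dim probes through the OF alone, and IL12A and IL1R2 through the YF alone.

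IL12A encodes the chain that pairs with IL12B to form the cytokine that drives T helper 1 and natural killer cell responses, and with EBI3 to form an inhibitory cytokine of regulatory T cells. Its level was -4.43, -4.77, -5.36 and -7.49 in the OF 0233, 0234, 0245 and 2258, and -3.71, -2.53, -3.57 and -5.15 in the YF 1069, 1070, 1072 and 1127. OF 2258 was the lowest of all and was not well above background, while YF 1127 lay among the other OF. The mean was -5.51 ± 1.37 (SD, n = 4) in OF and -3.74 ± 1.08 (n = 4) in YF, a difference of -1.77 ± 0.75 (SE), with an unadjusted p of 0.044 in limma, whereas the exact permutation test gave 0.0857. The smallest p that 4 against 4 allows in that test is 0.0286. IL12A was tested because it was above background in all YF, it was so in 3 of 4 OF, and it was not tested under a filter on both groups. The value of OF 2258 is a bound. Without OF 2258 the difference was -1.11, and without YF 1070 it was -1.37, with unadjusted limma p of 0.082 and 0.116. The p also missed 0.05 without OF 0245 (0.070), YF 1069 (0.078) or YF 1072 (0.084), and with slide as a block (0.081). It also missed with the brightest probe (0.056) and after normexp background correction (0.051), where the difference was -0.68. It was -2.31 within slide 1 (1 OF, 2 YF) and -1.13 within slide 2 (3 OF, 2 YF). The probes gave -1.61 and -1.93, but they share 38 bases and are no independent readings.

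The partners of IL12A were lower in OF in mean or not measured. IL12B was not well above background on any array, so that only 1 chain of the heterodimer was measured. EBI3 was tested as a signalling partner outside the members and had levels of -2.11, -1.42, -1.86 and -2.67 in OF and of -0.41, -1.21, -1.59 and -1.70 in YF, a difference of -0.79 with an unadjusted limma p of 0.052. Its groups overlapped by OF 0234, which lay above YF 1072 and 1127. Every one of the 5 IL12 family genes tested was lower in OF in mean, the others being IL23A (-0.18), IL27 (-0.17), IL27RA (-0.16) and IL12RB1 (-0.06), each within its SE. The summed level of 12 T and NK cell genes ranged from 1.57 in OF 2258 to 5.46 in OF 0233, and from 2.65 to 4.45 in YF. OF 2258 had the lowest level of IL12A and of these markers, and OF 0233 the highest of both among OF. Other females did not follow this order. OF 0245 had a sum of 5.33, near that of OF 0233, but an IL12A level of -5.36. YF 1069 had the lowest sum of the YF (2.65) with IL12A at -3.71, and YF 1127 a sum of 3.60 with the lowest IL12A of the YF (-5.15). The part of these cells in the values of IL12A was not tested.

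IL4R encodes the alpha chain that binds IL4, and with IL13RA1 also forms a receptor for IL13. Its level was -3.01, -3.34, -3.35 and -2.68 in the OF in the same order, and -3.91, -4.02, -3.22 and -3.86 in the YF. A single YF, 1072, lay within the range of the OF. The mean was -3.09 ± 0.32 (SD, n = 4) in OF and -3.75 ± 0.36 (n = 4) in YF, a difference of 0.66 ± 0.23 (SE) or a factor of 1.58, with an unadjusted limma p of 0.021 (exact permutation test, 0.0857). It was 0.26 within slide 1 and 0.88 within slide 2, and ranged from 0.52 to 0.84 when any 1 animal was left out. The limma p missed 0.05 without YF 1069 (0.051) or YF 1070 (0.059), and with array weights, where the difference was 0.38, it was 0.088.

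Taken on its own, the brighter IL4R probe separated the groups. It read -0.90, -0.82, -0.61 and -0.56 in OF and -1.38, -1.69, -1.11 and -1.44 in YF, so that every OF lay above every YF, with a difference of 0.68 and an exact permutation p of 0.0286, the smallest this design gives. With the brightest probe in place of the mean of both, the unadjusted limma p was 0.00276 and the adjusted p 0.995. On the mean of both, the groups overlapped. The share of all single probes with groups apart is not given here. Separation on 1 probe of 2 is therefore not read as particular to IL4R. The dimmer probe, whose sequence is shown above, gave 0.63 with overlapping groups and an exact permutation p of 0.171. It was well above background in all OF and YF but in 1 of 3 CC.

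**Figure D3:**
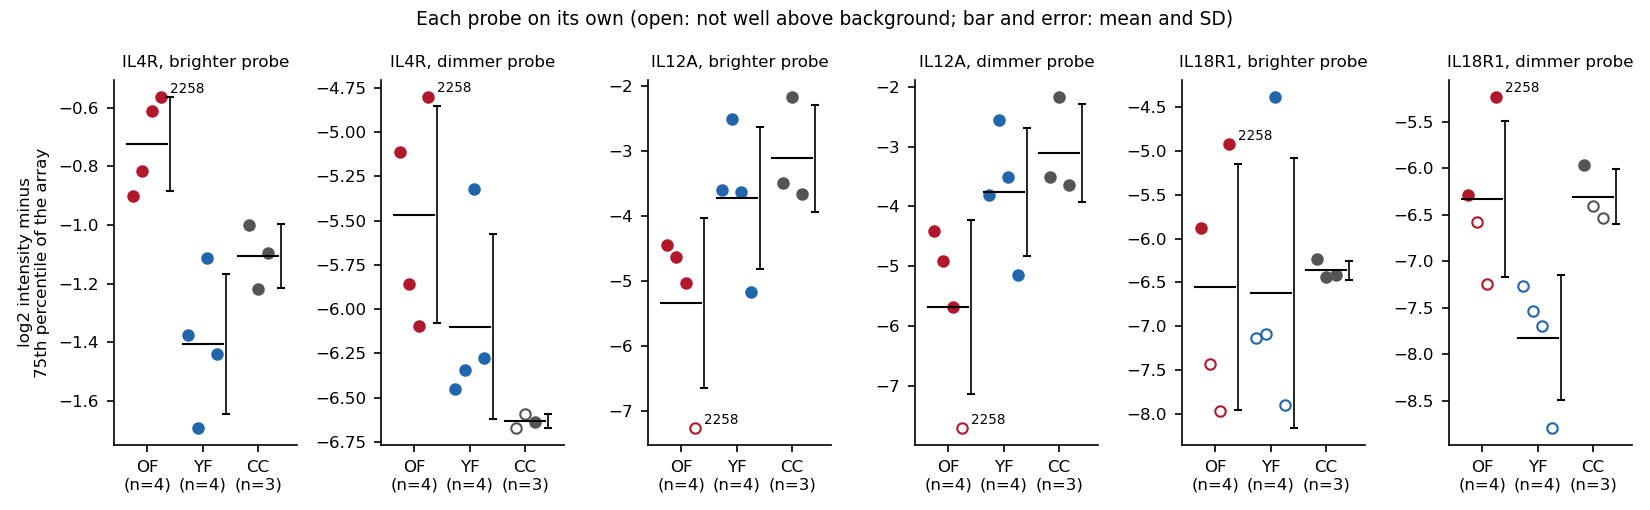
Level of each probe of IL4R, IL12A and IL18R1 in every female (vertical axis, log2 intensity minus the 75th percentile of the array), with open points where the probe was not well above background, and the mean and SD of each group. All 4 OF lay above all 4 YF for the brighter IL4R probe, both IL12A probes gave like values, and the IL18R1 probes differed from each other, with a difference of 1.49 on the dimmer and 0.08 on the brighter.

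Of the ligands of IL4R, IL4 was above background in 2 YF only, on 1 probe each, and IL13 was not well above background on any array. Of the 7 receptors of this family tested, IL4R included, 6 were higher and 1 lower in OF in mean, with a median difference of 0.29. IL2RG, the common gamma chain itself, had levels of -0.03, 0.53, 0.68 and 0.85 in OF and 0.49, -0.05, -0.24 and 0.06 in YF, a difference of 0.45 with an unadjusted limma p of 0.092. IL21R differed by 0.29. IL13RA1 differed by 0.29 over 4 probes of 2 sequences, of which the above-background ones gave 0.50 and 0.53 and the others are at background on every array, and by 0.07 without OF 2258. IL2RA, the high-affinity chain for IL2, was the exception at -0.24. None of these had groups that kept apart, and IL2RG, IL21R, IL13RA1 and IL2RA were picked after their values were seen. Of 5 mast cell genes tested, cells known for IL4 and IL13, 4 were lower in OF at an unadjusted limma p of 0.05, and the sum of the 6 on the array was 0.666 to 0.739 in OF and 0.745 to 1.10 in YF. Their part in the values of IL4R was not tested.

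IL15, which sustains natural killer cells and is known in the uterus for their maturation, was the only ligand of this family that could be tested. It read -5.70, -6.92, -5.63 and -7.10 in OF and -6.40, -5.52, -6.10 and -6.07 in YF. The OF 0234 and 2258 were the lowest of the 8 and the other OF lay near the top, and the difference of -0.31 ± 0.38 (SE) had a limma p of 0.433. Its sign turned to 0.09 after normexp background correction. IL15 was not well above background in 1 of 4 OF, so that it was tested through the YF alone. With array weights the difference was -0.79, with an unadjusted limma p of 0.031.

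IL17B, a ligand of IL17RB found in several non-lymphoid tissues, had the highest difference of all members, and it rested on 2 females. Its level was -4.16, 0.47, -2.83 and 1.51 in the OF 0233, 0234, 0245 and 2258, and -3.32, -3.75, -2.91 and -4.37 in the YF. OF 0234 and 2258 stood far above all YF and all CC, while OF 0233 and 0245 lay within the range of the YF or just above it. The difference was 2.34 ± 1.17 (SE), with a limma p of 0.079 (exact permutation test, 0.171). Without OF 2258 it was 1.41, and without OF 0233 it was 3.30 with an unadjusted limma p of 0.00989. With array weights it was 3.35, with an unadjusted limma p of 0.00568. Its probes gave 2.14 and 2.53 and do not share a long run of bases. Within slide 1 the difference was 0.50 and within slide 2, which held OF 0234 and 2258, it was 3.12.

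The same females were high in smooth muscle genes. The summed linear level of the 9 genes was 25.6, 371, 55.0 and 1054 in OF 0233, 0234, 0245 and 2258, and all 9 were higher in OF in mean, with a median difference of 2.08, although only TAGLN had an unadjusted limma p under the threshold (0.044). Over the 11 arrays the samples fell into 2 high and 9 low for both measures, so no correlation is given. The part of the smooth muscle genes in the values of IL17B was not tested.

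**Figure D4:**
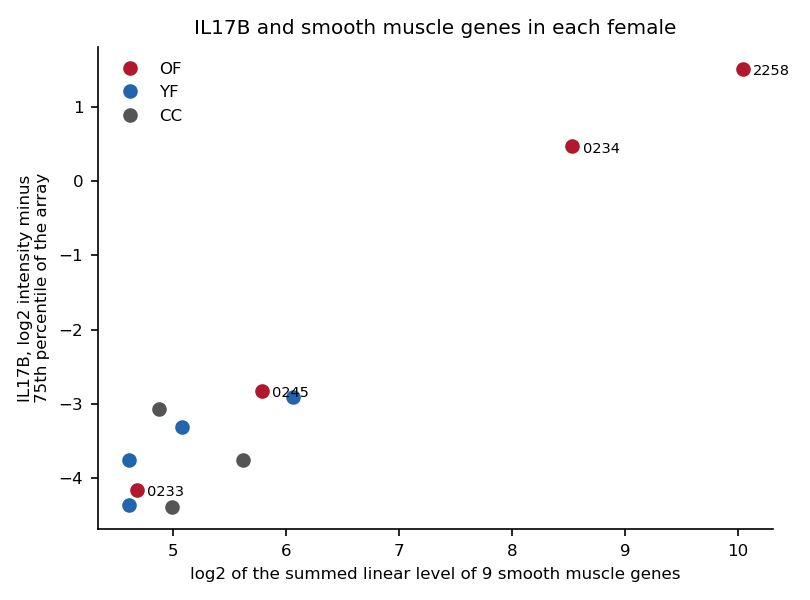
Level of IL17B (vertical axis, log2 intensity minus the 75th percentile of the array) against the log2 of the summed linear level of 9 smooth muscle genes (horizontal axis) in each of 11 females. OF 0234 and OF 2258 stand apart at the upper right, and the other 9 females lie together at IL17B levels between -4.39 and -2.83.

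Some other genes of the IL17 family had one or both of the same females at the top, and others did not. IL17D, a ligand of uncertain receptor, read -3.56, -0.93, -3.32 and -0.57 in OF and from -2.96 to -2.61 in YF, so that OF 0234 and 2258 were above all YF and the other OF were below all YF. IL17RD, a receptor-like regulator of fibroblast growth factor signalling, read -6.63, -5.26, -6.00 and -4.63 in OF and from -6.44 to -5.99 in YF. Their differences were 0.65 each, with limma p of 0.361 and 0.133. IL17RB, the receptor of IL17B, read -2.66, -2.44, -3.24 and -0.98 in OF and from -2.51 to -1.69 in YF, with 2258 alone above the YF and a difference of -0.31. IL17RC, a subunit of the IL17A receptor, was lowest of the 8 in OF 2258, at -1.06, and -0.42 in OF 0234, and IL17REL was highest in OF 0245, at -6.61. IL17D, IL17RD, IL17RB, IL17RC and IL17REL were picked after their values were seen. Of 7 family genes tested, 5 were higher and 2 lower in OF in mean.

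Of the 5 tested genes with the largest SD within groups (IL8, IL17B, IL1A, IL1R2 and IL12A), IL1A and IL1R2 belong to the IL1 family. IL1A and IL1B are the inflammatory ligands of IL1R1, IL1RN is the antagonist that blocks that receptor, and IL1R2 is a decoy that binds ligand without signalling. IL1RN read -2.53, -3.11, -2.32 and 0.08 in OF and -3.03, -2.16, -2.87 and -3.29 in YF. OF 2258 was far above every other female, and the other OF lay within the range of the YF. The difference of 0.87 ± 0.64 (SE, limma p 0.209) was 0.19 without OF 2258 and -0.15 with array weights. IL1R2 was the reverse, at -3.32, -4.25, -3.22 and -6.78 in OF and -5.10, -2.07, -3.93 and -2.22 in YF, with 2258 lowest and not above background. IL1R2 was above background in 3 of 4 OF, so that it was tested through the YF alone. The value of OF 2258 is a bound. The difference in IL1R2 of -1.06 ± 0.94 (SE, limma p 0.288) was -0.27 without OF 2258.

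IL1A read -6.13, -3.75, -4.70 and -3.11 in OF and -1.27, -3.51, -4.74 and -4.87 in YF. YF 1069 stood above all other OF and YF, and CC 1068 was as high at -1.24. The difference was -0.82 ± 0.90 (SE, limma p 0.387), and -0.05 without YF 1069. IL1B read -3.77, -4.26, -4.39 and -2.71 in OF and -3.60, -4.03, -4.29 and -4.78 in YF, with 2258 again highest, a difference of 0.39 ± 0.40 (SE, limma p 0.355) and 0.03 without OF 2258. IL33, an alarmin stored in nuclei and released from damaged cells, read -1.91, -1.81, -1.78 and -1.33 in OF and -1.38, -2.40, -1.61 and -2.63 in YF, a difference of 0.30 ± 0.30 (SE, limma p 0.345), and from 0.09 without YF 1127 to 0.51 without YF 1069. OF 2258 lay just above the highest YF, and the other OF within their range. Of the 11 genes of this family tested, 6 were higher and 5 lower in OF.

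The IL18 receptor could be read only in part. IL18R1, the chain that binds IL18, was well above background in 2 OF, 1 YF and 3 CC, with levels of -6.08, -7.00, -7.60 and -5.07 in OF and -7.20, -7.31, -6.04 and -8.35 in YF. It did not pass the filter between OF and YF. Its dimmer probe alone had every OF above every YF, by 1.49 in mean. That probe was above background in 2 OF and 0 YF, so that the YF values are bounds and no p is given. The share of all single probes with groups apart is not given either. The brighter probe gave 0.08. IL18RAP, the signalling partner of IL18R1, was above background in 2 OF, 0 YF and 0 CC.

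IL8, also named CXCL8, attracts neutrophils through CXCR1 and CXCR2. Its level was -5.23, -6.32, -4.18 and -1.06 in OF and -7.23, -3.58, -5.18 and -5.90 in YF, spanning a wide range in each group, with YF 1069 not above background. IL8 was thus tested through the OF alone. OF 2258 was the highest. The difference of 1.28 ± 1.16 (SE, limma p 0.301) was 0.23 without OF 2258 and was -0.86 with array weights. CXCR2, a partner outside the members, differed by 0.81 with an unadjusted limma p of 0.027, and was -2.58 in OF 2258, the highest of the 8 OF and YF. The summed level of 7 granulocyte genes, CXCR2 among them, was 4.72, 2.13, 1.14 and 2.06 in OF and lay between 1.30 and 3.01 in YF. OF 2258 was thus the highest in IL8 and in CXCR2, while the sum was highest in OF 0233. The part of granulocytes in IL8 was not tested.

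**Figure D5:**
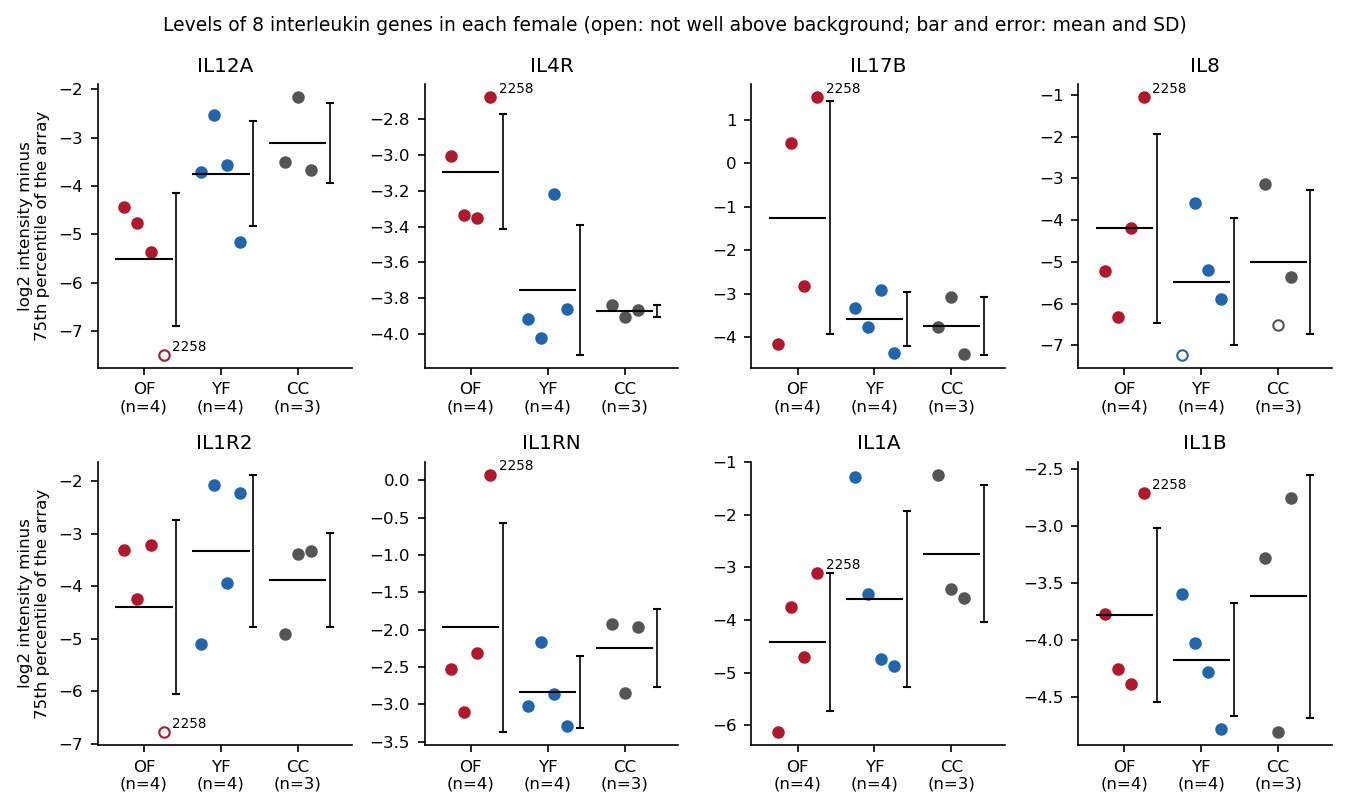
Level of 8 interleukin genes in each female (vertical axis, log2 intensity minus the 75th percentile of the array) in OF, YF and CC, with the mean and SD of each group and open points where a gene was not well above background. OF 2258 was the highest of the OF and YF for IL4R, IL17B, IL8, IL1RN and IL1B, and the lowest for IL12A and IL1R2.

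IL6 is an inflammatory and IL10 an inhibitory cytokine. IL6 was above background in 2 OF, 2 YF and 2 CC, from -7.63 to -4.43 in OF and from -8.22 to -4.54 in YF, and was not tested. IL10 read -3.34, -3.52, -3.16 and -3.35 in OF and -3.67, -3.27, -3.43 and -3.54 in YF. It was among the least variable members, and its difference of 0.13 ± 0.14 (SE, limma p 0.379) spans about 1 standard error. The probes of IL10 differed: the brighter gave 0.30 with overlapping groups (exact permutation test, 0.0857) and the dimmer -0.04 (0.857). IL6R, the ligand-binding chain for IL6, read 3.60, 3.09, 3.72 and 1.04 in OF and 1.78, 3.12, 3.99 and 3.48 in YF. OF 2258 and YF 1069 were low and the other 6 females lay between 3.09 and 3.99. The difference was -0.23 ± 0.67 (SE, limma p 0.737), and 0.37 without OF 2258. IL6ST, the signalling chain shared by the whole IL6 family, differed by -0.12 and IL11RA by 0.09.

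OF 2258 was at an end of the range more often for interleukins than for transcripts in general. It was the highest or lowest of the 8 OF and YF for 37 of the 50 member transcripts tested (74%), against 51.3% of all transcripts, and OF 0234 for 0 of 50, against 6.23%. Some of the 50 are transcripts of the same gene with shared probe sequences, such as 3 of IL12RB1, and are not separate readings. The other 6 females were at an end for 16% to 28% of the members. This female also had the highest smooth muscle sum, the lowest epithelial sum and the lowest T and NK cell sum of the 8. The part of these differences in tissue makeup was not tested.

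By the fold change rank ordering statistics (FCROS), which ranks all transcripts in each of the 16 pairs of 1 OF and 1 YF, 5 of the 93 members (5.38%) were called, against 4.94% of all 26323 transcripts. IL17B (f = 0.993), IL18RAP (f = 0.989) and IL4R (f = 0.985) were called as over-expressed in OF, against 2.88% of all transcripts. IL12A (f = 0.00267) and IL1R2 (f = 0.0239) were called as under-expressed, against 2.06%. The ratio of the arithmetic means was 12.5 for IL17B, 1.57 for IL4R, 0.312 for IL12A and 0.491 for IL1R2. An f-value is the place, from 0 to 1, of a transcript's trimmed mean rank on a normal curve fitted to those of all transcripts. It is not a p adjusted for the number of transcripts. Over the 15 settings tried, IL12A was called in 15, IL17B in 13, IL18RAP in 11, IL4R in 10 and IL1R2 in 7. IL17B was not called without OF 0234 and not without OF 2258. IL18RAP was not well above background in any YF, so no fold is given for it.

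The CC were compared with the YF and with the OF, questions which the labels imply by naming the group. These comparisons share arrays with each other and with that of OF and YF. Between CC and YF, 51 members were tested and 0 passed an adjusted p of 0.05 (0.0% of all 19993 transcripts) or an unadjusted one (3.03% of all). In CC 28 were higher and 23 lower (45.4% of all were higher), with a median difference of 0.05. Of the 51, 2 (3.92%) had all CC above all YF and 0 had all CC below, against 3.83% of all transcripts apart, 1.51% above and 2.32% below. These were IL20RA and IL27RA, chosen after their values were seen.

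Between CC and OF, 52 members were tested, 0 passed an adjusted p of 0.05 (0.0% of all 19914 transcripts), and 4 (7.69%) passed an unadjusted one, against 4.57% of all. In CC 32 were higher and 20 lower (43.6% of all were higher). The groups kept apart for 6 of the 52 (11.5%), against 5.79% of all transcripts: IL12A, IL20RA and IL27RA had all CC above all OF (2.86% of all), and IL4R, IL10RA and IL13RA1 all CC below all OF (2.93% of all). The exact permutation test of each gave the smallest p that 3 against 4 allows, 0.0571, and cannot pass 0.05. Of these 6, IL12A was tested through the CC alone, as it was above background in 3 of 4 OF.

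IL12A read -3.50, -2.16 and -3.66 in the CC 1068, 1128 and 1129, a mean of -3.11 ± 0.82 (SD, n = 3). CC 1128 lay above the range of the YF and the others within it, and all 3 lay above all OF, by 2.40 ± 0.76 (SE) in mean, with an unadjusted limma p of 0.014. IL12A was above background in all 3 CC but in 3 of 4 OF, so that it was tested through the CC alone. OF 2258, the lowest OF, was not above background, and its value is a bound. Without CC 1128 the difference was 1.93, with an unadjusted limma p of 0.056. After normexp background correction the difference was 1.09. The CC stood 0.63 above the YF, with a limma p of 0.336.

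IL4R read -3.84, -3.91 and -3.87 in CC, all below every OF, by -0.77 ± 0.21 (SE) in mean with an unadjusted limma p of 0.00627. The probes of IL4R differed on how CC stood to YF: CC minus YF was 0.30 on the brighter probe and -0.54 on the dimmer. The brighter probe read -1.22 and -1.10 in the CC 1128 and 1129, with CC 1068 higher than both, all below every OF and within or above the range of the YF, and CC minus OF was -0.38 on it and -1.17 on the dimmer, which 2 of 3 CC did not have above background.

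IL20RA, a chain of the receptors for IL19, IL20 and IL24, read -0.02, -0.72 and -0.71 in CC, between -1.81 and -0.91 in OF and between -1.40 and -0.72 in YF. CC minus OF was 0.72 ± 0.29 (SE, unadjusted limma p 0.039), and CC minus YF 0.48 (limma p 0.095). The p of the former missed 0.05 without CC 1068 (0.140), OF 0234 (0.062) or OF 2258 (0.062). The CC 1128 and 1129 stood above the highest YF by less than the rounding of these values shows. IL27RA, which joins IL6ST to bind IL27, read 2.22, 2.36 and 2.63 in CC, between 1.45 and 2.13 in OF and between 1.90 and 2.19 in YF, with CC minus OF at 0.46 (limma p 0.078). IL10RA, the ligand-binding chain for IL10, read -6.67, -6.87 and -6.91 in CC and between -6.66 and -6.08 in OF, a difference of -0.50 ± 0.19 (SE, unadjusted limma p 0.034). Of its 2 probes 1 was above background, which alone gave -0.25 with a limma p of 0.137, so that the lower p rests on the probe at background. The lowest OF and the highest CC differed by less than the rounding shows. The p also missed 0.05 after centring on the median (0.079), quantile normalization (0.066) or normexp (0.189), with a block for the slide (0.078) and with array weights (0.088). It missed 0.05 without CC 1128 (0.093), CC 1129 (0.090), OF 0233 (0.055), OF 0245 (0.078) or OF 2258 (0.066). IL13RA1 read -6.87, -6.76 and -6.98 in CC and between -6.76 and -5.82 in OF, a difference of -0.42 (limma p 0.145), and its groups were apart only in the mean of 4 probes, by less than the rounding shows. On both of its above-background probes CC and OF overlapped, with differences of -0.65 and -0.74, and its other probes were at background on every array.

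IL17B read -3.76, -3.07 and -4.39 in CC, a mean within the spread of the YF (CC minus YF of -0.15) and below the OF by 2.49 on the log2 scale, with a limma p of 0.102. IL1A had the highest difference between CC and YF among the ligands tested, 0.86, with levels of -1.24, -3.41 and -3.57 in CC and a limma p of 0.392. It was 0.11 without CC 1068, and 1.63 without YF 1069, with an unadjusted limma p of 0.049. IL33 read -0.56, -1.72 and -1.64 in CC and stood 0.70 above the YF, with a limma p of 0.121, and 0.33 above without CC 1068. IL18R1 stood 0.89 above the YF, with levels of -6.10, -6.42 and -6.48 in CC and a limma p of 0.098. It was above background in all 3 CC but in 1 of 4 YF, so that it was tested through the CC alone. The YF values are mostly bounds. Its probes gave 1.52 and 0.26, and after normexp background correction the difference was 0.05. Without YF 1072, the highest YF, the difference was 1.29, and with slide as a block 1.44. Both set the CC mostly against bounds, so no p is given for them. For none of these did CC and YF keep apart. IL8 read -3.13, -6.52 and -5.35 in CC, IL1RN -1.92, -2.85 and -1.97, IL1R2 -4.91, -3.39 and -3.33, and IL1B -3.28, -4.81 and -2.76. For IL1B the CC reached beyond the YF at both ends.

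The molecules that carry interleukin signals into the cell were looked at beside the members. Of 53 adaptors, kinases, transcription factors, inhibitors and related cytokines listed, 49 were on the array and 38 were tested between OF and YF. In OF 19 were higher and 19 lower in mean, with a median difference of 0.01, 0 passed an adjusted p of 0.05 in limma and 1, CXCR2, an unadjusted one, a share near the 2.42% of all transcripts. SOCS3, the inhibitor induced by IL6 signalling, differed by 0.91 (limma p 0.077). NFKBIZ, an IL17- and IL1-induced regulator of NF-kappa B, differed by 0.99 (limma p 0.203), and JAK3, the kinase bound to the common gamma chain, by -0.78 (limma p 0.240). OF 2258 stood apart in all 3. SOCS3 was -2.96 in this female and -5.06 to -4.23 in the other OF, with -5.60 to -4.48 in YF. NFKBIZ was 3.73 in it and 0.32 to 0.90 in the other OF, with -0.09 to 0.96 in YF. JAK3 was -6.23 in it and -4.13 to -3.42 in the other OF, with -4.60 to -3.21 in YF. STAT6, the transcription factor downstream of IL4R, differed by -0.11, and STAT4, downstream of the receptor for the IL12A and IL12B heterodimer, was above background in 1 OF and no YF. Of the cytokines that share a receptor subunit with IL6, LIF and OSM were not well above background on any array. CLCF1 was so in every OF, YF and CC used, with a difference of 0.08 between OF and YF. CTF1 was above background in 3 OF, 3 YF and 3 CC, and CNTF in 2 YF only. Of the other partners listed, CSF2 and CRLF2 were not above background on any array.

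The precision of these values differs with brightness. Where different array features carried the same probe sequence, the SD between them within an array was 0.0245 to 0.161 (median 0.098) for 10 sets above background on all arrays, and 0.126 to 1.19 (median 0.436) for 16 dimmer sets. The spread between females of the dim members is thus partly of the size of the spread between features on 1 array. Of 49 tested members with at least 2 probe sequences, 39 had all probes on 1 side of 0 between OF and YF, and 21 of 89 probe pairs shared 20 or more bases.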

How the data were processed

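Total RNA from endometrial biopsies of each female was labelled with Cy-3 and hybridised to 1 custom bovine Agilent array each. The authors deposited, per the file headers, the processed intensity of each spot, corrected for background by Feature Extraction 10.7.3.1 and not normalised between arrays. No normalization is given in the sources used here. The files hold no counts, so the number of arrays limits the precision.

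Spots for 1319 controls and 66 probes with an outlier flag were left out. The log2 intensity minus that of the array's 75th percentile was averaged over the spots of a probe and then over the probes of a transcript. Of several transcripts of a gene, the one with the highest mean signal is given. Where at least 1 probe of a transcript stood well above background on all arrays of either group, it was tested with limma 3.58.1 in R 4.3.3, two-sided, with Benjamini-Hochberg adjustment over all transcripts tested, on the arrays of the groups compared only. Exact permutation tests, two-sided, used all 70 splits (4 against 4) or 35 splits (3 against 4) in Python 3.11.15. FCROS was coded from its description in the methods, with a share of 0.25 of the ranks trimmed at each end, calls beyond 0.025 and 0.975 and a ratio of 1.5, on all transcripts. Scripts were tested on simulated data.

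Genes given with values per animal were those at an unadjusted p of 0.05 or less between OF and YF, the 5 with the largest difference there, those whose groups did not overlap, 15 that the paper names, the 3 with the largest difference in each comparison with CC, and the 5 with the largest SD within groups. The members, gene lists and this rule were chosen with earlier results of these data known. Others are named as chosen after their values were seen. Alternatives were quantile normalization, normexp background correction with an offset of 50, centring on the median, each transcript's brightest probe, single probes, no filter and a stricter filter on dim probes, a block for the slide, array weights, a joint fit of all groups, animal 1111 included, no trimming in FCROS, and each animal left out. Leaving dim probes out of the mean of a transcript was added after the data were seen. The arrays lay on 2 slides, slide 1 with 1 OF, 2 YF and animal 1111, slide 2 with 3 OF, 2 YF and 3 CC.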

Additional observations from a re-analysis of the deposited data

Results flagged for a closer look

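IL27RA, the chain that joins IL6ST to bind IL27, had a level of 1.45 in OF 2258, whereas the other OF lay between 2.07 and 2.13. The gap to the nearest of them made up 0.917 of the range of the group, more than Dixon's test allows for 4 samples. It was 1 of 32 groups looked at, and chance gives about 1 such gap in 20 groups. The difference of OF minus YF, -0.16, was 0.00 without this female.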

How the results depend on the processing

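No member passed an adjusted p of 0.05 in limma under any alternative in any of the 3 comparisons. The number of members at an unadjusted p of 0.05 between OF and YF, 2, was 1 with a filter on both groups, after normexp and with slide as a block, 7 with array weights, and between 0 (without YF 1070) and 6 (without OF 0233) with an animal left out. Between CC and YF, 0 became 2 with no filter, 3 with slide as a block, 1 with array weights, and between 0 and 3 with an animal left out. Between CC and OF, 4 became 14 with array weights, which also called 26 transcripts, none of them members, at an adjusted p of 0.05, and between 2 and 5 with an animal left out. FCROS called 2 members after normexp in place of 5, and between 4 and 6 with an animal left out. The shares of all transcripts under these settings are not given beside the counts. The changes in the counts are therefore not read as a result about the members. The median difference between OF and YF, -0.06, changed sign under 6 settings, within -0.10 and 0.07. IL12A, IL4R and IL17B kept their direction between OF and YF under every alternative run, at -2.24 to -0.68, 0.38 to 0.84 and 1.41 to 3.35, while IL8, IL1RN, IL10 and IL10RA turned sign with array weights. The causes were not tested. No paired analysis was possible because the animal numbers of the groups do not overlap. Signal over background limits the 20 genes above it on no array.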

Other observations

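The contemporary cow that the authors left out, 1111, read -3.23 for IL12A, -3.71 for IL4R, -3.96 for IL17B, -4.31 for IL8, -2.32 for IL1RN, -3.48 for IL1R2, -5.01 for IL1A and -3.60 for IL1B. Each of these lay within the range of the other 11 females. For IL15 it read -4.51, above all others, whose highest was -5.52. With this cow included, IL4R (-0.74) and IL12A (2.37) still differed between CC and OF in the same direction.

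The age and parity of OF and YF cannot be told apart, slide 1 held no CC that was used, and 4 or 3 animals per group leave differences of the size of the spread between females undetectable. Clones of 1 donor leave out genetic spread. Of the 12 further transcripts of the 81 genes, that of IL6 lies on another chromosome than the one given and was not well above background in any YF or CC, and it was not used for a gene value.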
